A study of Rattus norvegicus with 4 samples.

Results

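Reln-expressing D1 medium spiny neurons of the rat nucleus accumbens were described here as single nuclei chosen by their own UMI counts (unique molecular identifiers, each standing for 1 captured RNA molecule). A nucleus was a member if it had at least 200 genes, at least 2 UMIs of Drd1 and Ebf1 together, at most 1 of Drd2 and Adora2a together, at least 5 of Pde10a, at most 1 of Casz1 and Otof together and at most 4 of Grm8, and then at least 2 UMIs of Reln and more of Reln than of Htr4. Of 26228 nuclei in the series, 1055 met the rule: 252 in the saline female library, 232 in the saline male, 273 in the cocaine female and 298 in the cocaine male library. They were chosen by measured values, so the 10 genes of the rule describe the selection and are not findings within it.

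The study asked how subpopulations of D1 neurons respond to repeated cocaine. Adult Sprague-Dawley rats of both sexes, 90 to 120 days old, were injected intraperitoneally on 7 days with saline or with cocaine at 20 mg/kg, and the tissue was collected 1 h after the last injection. All groups were also placed in an open field after injection, and the labels name no transgene or deletion. Each of the 4 libraries (saline female, saline male, cocaine female, cocaine male) pooled 2 mm punches centred on the accumbens core from 4 rats, 16 rats in all, so a group had 2 libraries, 1 of each sex, and variation between single rats was not measured. Nuclei were sorted by flow cytometry before droplet capture with 3′ chemistry, and single-nucleus RNA is mostly nuclear and partly unspliced.

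Medium spiny neurons are the GABAergic projection neurons of the striatum. Those with the dopamine receptor Drd1 couple dopamine to a rise in cAMP and also make substance P (Tac1) and dynorphin (Pdyn), while those with Drd2 make enkephalin (Penk). Reln encodes reelin, a large secreted glycoprotein that binds the lipoprotein receptors Lrp8 and Vldlr and, through the adaptor Dab1 and kinases such as Fyn, shapes neuronal positioning in development and synaptic function in the adult. Stimulation that raises cAMP and calcium in a neuron switches on immediate-early genes within minutes to hours, among them the nuclear receptors of the Nr4a family.

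The libraries held 31484217 to 40737786 UMIs in 6213 to 7265 nuclei each, with a median of 4363 to 5066 UMIs per nucleus. Members were deeper than this, with medians of 10769, 7962, 8633 and 7781 UMIs in the saline female, saline male, cocaine female and cocaine male libraries (this order holds for every set of 4 values that follows). The saline female members were the deepest. Of all barcodes, 162 occurred in more than 1 library, but no member's barcode was that of a member elsewhere. The Y-linked genes Eif2s3y and Kdm5d matched the sex in the labels of all 4 libraries.

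The label was checked against markers of the other cell types. Within members, Drd1 was at 114, 150, 111 and 139 CPM (UMIs of the gene per 1000000 UMIs of the class) and Ebf1, a transcription factor of D1 neurons, at a mean of 622.7 ± 28.2 CPM (SD, n = 4 libraries), but both are rule genes. Drd1 itself had no UMI in 28.6%, 27.2%, 38.5% and 32.6% of members, which then passed on Ebf1. The 12 general medium spiny neuron markers summed to 19035 to 19381 CPM across the libraries, a near-constant level. Markers of other classes were also read: the D2 list summed to 163 to 187 CPM, interneurons to 116 to 147 CPM with Vip, Chat and Slc5a7 at 0, glutamatergic neurons to 144 to 157 CPM with Neurod6 and Neurod2 at 0 and 2 of the 8 genes above 1 CPM, microglia to 8.93 to 18.0 CPM and vascular cells to at most 3.23 CPM. The glutamatergic sum was above that of D2 nuclei (81.4 to 102 CPM), of Htr4-rich nuclei (50.5 to 72.9 CPM) and of all nuclei (79.8 to 141 CPM). Oligodendrocyte markers summed to 166, 236, 221 and 261 CPM and astrocyte markers to 25.8, 78.1, 42.4 and 34.5 CPM, so the saline male members held the most astrocyte RNA and the saline female members the least RNA of both kinds. The part of these transcripts in the results was not tested. Outside the rule, the D1 peptide gene Pdyn was at 60.9 ± 5.65 CPM in members and at a mean of 1.49 CPM in D2 nuclei (SD, n = 4 libraries), and Tac1 was at 219 to 409 CPM against a mean of 9.21 CPM, so the data went with the label.

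Of the genes given as marks of the type, Calb1 and Sh3rf2 were not in the rule. Calb1, which encodes the calcium buffer calbindin, was at 73.9, 82.1, 99.0 and 91.7 CPM in members and at 58.1, 17.0, 53.4 and 16.8 CPM in D1 nuclei chosen by the mirror rule (at least 2 UMIs of Htr4 and more of Htr4 than of Reln, here called Htr4-rich, 263 nuclei). It was higher in members in each library, but D2 nuclei (3178 nuclei of the corresponding D2 rule) were at 54.6 to 74.5 CPM, so Calb1 was not restricted to members. Sh3rf2, a RING-finger and SH3-domain protein, was at 174, 153, 178 and 146 CPM in members, at 105, 71.7, 78.0 and 65.4 CPM in Htr4-rich nuclei and at 109 to 130 CPM in D2 nuclei. Both marks were therefore graded between classes and were not absent from the others. At the edge of the rule, D1 nuclei with 1 Reln UMI had Calb1 at 73.4 and Sh3rf2 at 165 CPM over the pooled libraries, and members with 2 Reln UMIs had 75.2 and 173 CPM, so nuclei just outside resembled those just inside. D1 nuclei without a Reln UMI had 67.3 and 94.1 CPM.

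Reln itself varied widely among members. The median was 6, 4, 4 and 4 UMIs per nucleus and the highest nucleus held 65, 40, 69 and 104 UMIs. Nuclei with at least 16 Reln UMIs were 9.52%, 4.31%, 15.8% and 12.1% of members (24, 10, 43 and 36 nuclei). Their exact Clopper-Pearson 95% intervals were 6.20 to 13.8%, 2.09 to 7.78%, 11.6 to 20.6% and 8.61 to 16.3%, which cover counting error only. With every nucleus thinned to 5000 UMIs, at least 10 Reln UMIs were found in 6.12%, 3.76%, 16.0% and 15.0% of members. Nuclei very rich in Reln thus made up a larger share in both cocaine libraries than in both saline libraries, also at equal depth, and the thinned shares of the groups lay further apart. As Reln is the selecting gene, these shares are given as a description.

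Members were 44.9%, 31.4%, 37.2% and 37.1% of the D1 nuclei that passed all steps before the Reln step (561, 739, 734 and 803 nuclei), with exact Clopper-Pearson 95% intervals of 40.8 to 49.1%, 28.1 to 34.9%, 33.7 to 40.8% and 33.8 to 40.6%. The mean was 38.2% ± 9.56 with saline and 37.2% ± 0.058 with cocaine (SD, n = 2 each), a difference of -1.005 percentage points. The cocaine libraries lay between the saline libraries, and the exact two-sided permutation test gave p = 1, where the smallest p this design allows is 0.333. The saline female library had the highest share and also the deepest nuclei. At 5000 UMIs per nucleus the shares were 35.2%, 25.4%, 32.5% and 29.6%, in the same order of libraries.

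Summed over all D1 nuclei before the Reln step, Reln RNA was at 335.8 and 218.2 CPM with saline and at 423.4 and 406.1 CPM with cocaine. These nuclei were chosen without Reln. Both cocaine libraries were above both saline libraries, and Reln differed by 0.61 on the log2 scale (SE 0.075, edgeR adjusted p = 3.67e-10), with a log2 difference of 0.33 between the female libraries and 0.90 between the male libraries. The call was lost in most other fits that change the libraries or the model. Without the saline female library the log2 difference was 0.93 and still called. Without the saline male library it was 0.31 (edgeR adjusted p = 0.211; an unnamed value in parentheses that follows a log2 difference is this adjusted p throughout), without the cocaine female library 0.55 (0.947), and without the cocaine male library 0.61 (1.00), while the fit without sex gave 0.58 (0.704) and DESeq2 0.61 with an adjusted p of 1.00. The level of Htr4, a serotonin receptor, differed by -0.10 (edgeR adjusted p = 0.817) in the same nuclei.

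Members differed from Htr4-rich D1 nuclei in a limited set of genes. Of 9123 genes with a mean of at least 10 CPM in either class, 25 were at least 2-fold higher in members in each of the 4 libraries (0.274%) and 84 at least 2-fold lower in each (0.921%), with 1 CPM added to both sides. These are descriptions with no test, because the classes were chosen on this contrast. Among receptors and signalling proteins, Tacr3, the neurokinin B receptor, was at 12.1 ± 5.52 CPM in members (SD, n = 4 libraries for all values of this kind) and had 0 of 2566069 UMIs in Htr4-rich nuclei. Against 3 UMIs over the Htr4-rich group (1.17 CPM), its pooled level of 11.7 CPM was at least 10.0-fold higher. The cannabinoid receptor Cnr1 was at 61.9 ± 6.95 against 21.0 ± 3.44 CPM, the sorting receptor Sorcs2 at 109 against 29.2 CPM, and the receptor tyrosine kinase Alk at 106 against 28.3 CPM. Pcsk1, the prohormone convertase that cuts neuropeptide precursors, was at 44.2 ± 27.3 against 6.13 CPM. Its spread and that of Nr4a3 (134 ± 118 against 29.9 CPM) was mostly that between saline and cocaine libraries, described further on. The transcription factors Bach2 (228 against 80.9 CPM), Fosb (10.97 against 2.03 CPM) and Fosl2 (16.7 against 6.23 CPM) also met the criterion. Fosl2 was itself higher in the cocaine members, as described further on. In Htr4-rich nuclei Pcsk1 rested on 16 UMIs in all and Nr4a3 on 79, and Fosb and Fosl2 were low there as well. Dach1, another transcription factor, was at 904 against 224 CPM. The other genes furthest apart in this direction were Slc26a5, which encodes prestin, Antxr1, an anthrax toxin receptor, Skap1, Kif28p, Asb2 and Ccnd2, a D-type cyclin.

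Among the genes lower in members were 6 of 57 ion channel genes compared and 7 of 72 guidance or adhesion genes, beside 0.921% of all genes, from lists chosen with such results known. Kcnc2, a fast delayed-rectifier potassium channel, was at 6.16 CPM in members against 78.0 CPM in Htr4-rich nuclei. The potassium channel genes Kcnt2 (16.6 against 102 CPM) and Kcnd3 (58.5 against 222 CPM), the Kcnd partner Kcnip1, Kcnh5 and the cation channel Trpc7 were lower as well. No potassium channel of the list was 2-fold higher in members in every library. Of guidance and adhesion genes, the semaphorin co-receptor Nrp2 was at 2.73 against 44.3 CPM, the repellent ligand Slit2 at 50.1 against 285 CPM and netrin-G1 (Ntng1) at 13.8 against 72.0 CPM, and Unc5d, Epha3, Cdh20 and Sema3a met the criterion too. Tac3, which encodes neurokinin B, the ligand of Tacr3, was at 2.12, 5.00, 4.85 and 3.70 CPM in members and at 11.6, 15.8, 11.6 and 18.7 CPM in Htr4-rich nuclei, so ligand and receptor were higher in different classes, although the level of Tac3 in members was that of oligodendrocyte nuclei (mean 3.79 CPM). The delta opioid receptor Oprd1 was at 2.17 against 18.8 CPM, below the 124 CPM of D2 nuclei. The calcium/calmodulin-dependent kinase gene Camk2d was at 11.9 against 184 CPM and the membrane-binding copine Cpne4 at 7.33 against 109 CPM. Cyct (0.95 against 44.9 CPM), Eya2 (1.25 against 16.5 CPM), Angpt1 (2.34 against 21.8 CPM) and Frem2 (1.31 against 18.9 CPM) were low in members. The RNA-binding protein gene Ralyl was lower but high in both, at 574 against 1830 CPM. With a 1.5-fold criterion the total rose from 109 to 250 genes (78 higher, 172 lower).

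**Figure D1:**
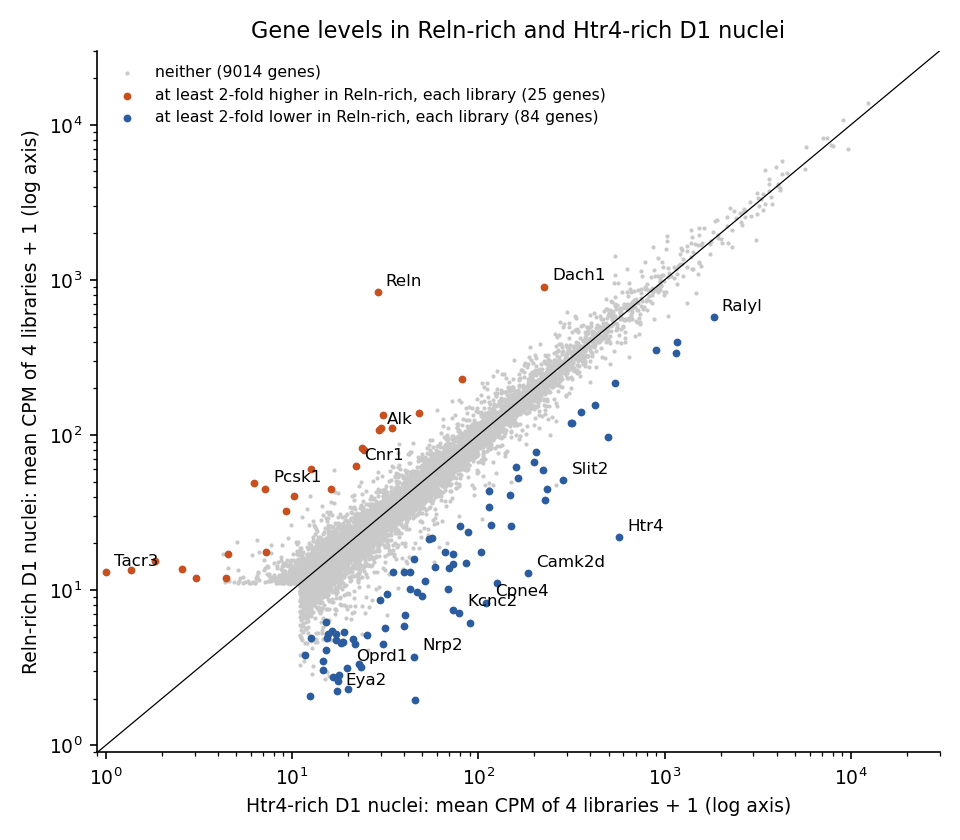
Mean level of each gene over the 4 libraries in Reln-rich D1 nuclei (vertical) against Htr4-rich D1 nuclei (horizontal), in CPM with 1 added on log axes, where each point is 1 of 9123 genes and the line marks equal levels. Orange points are the 25 genes at least 2-fold higher in Reln-rich nuclei in each library and blue points the 84 at least 2-fold lower, with Reln and Htr4 set apart by the rule itself, Tacr3 at 0 in Htr4-rich nuclei, and most genes close to the line.

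Across single D1 nuclei before the Reln step, the genes whose expression went most with Reln were Dach1 (median Pearson's r over the 4 libraries 0.48), the kinase gene Mapk4 (0.45), Tac1 (0.43), the cation channel gene Trpm3 (0.41), the calcium pump gene Atp2b1 (0.40), the scaffolds Grip1 and Homer1 (0.40 each) and Phactr1, a regulator of protein phosphatase 1 and actin (0.39), among 11810 genes compared. The nuclei of a library share its depth and free RNA, so these values are a description. Dach1 held r at 0.42 to 0.54 in the single libraries and Tac1 at 0.27 to 0.49.

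In members, cocaine libraries differed from saline libraries in 133 of 10835 genes tested (1.23%, edgeR adjusted p below 0.05), of which 105 were higher (0.969%) and 28 lower (0.258%). Of the 105, 10 were in the list of immediate-early genes and 5 in that of peptides and their processing, and the named genes with the smallest adjusted p were Nr4a3, Nts, Scg2, Ptpro, Elmo1, Ell2 and Zdbf2. All 133 had 1 sign in both sexes, and in 128 the groups did not overlap, compared with 37.6% of all genes tested. The fit favours genes of both kinds, so these counts describe the calls and add no support to them. The median log2 difference over all genes tested was 0.0006. The rule genes Reln and Grm8 were among the calls and are not used, and 13 called genes had only an identifier. The count fell to 16 without the cocaine female library, to 79 without the cocaine male, to 54 after removal of doublets scored by Scrublet, to 49 without sex as a term and to 15 with DESeq2. Leaving out either saline library gave 100 (female) or 122 (male). No named gene changed sign in any of these fits. The 4 libraries are 4 pools and the fit left 1 residual degree of freedom. The p-values therefore rest mostly on spread estimated across genes (25.3 prior degrees of freedom), not on the spread of each gene between pools.

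Nr4a3, an orphan nuclear receptor induced by activity, was the most strongly called gene. It was at 42.4 and 35.4 normalised CPM (CPM scaled by the trimmed mean of M-values, as are the values of this kind that follow) with saline, and at 285 and 179 with cocaine. Both cocaine libraries were far above both saline libraries, and the log2 difference was 2.58 (SE 0.13, edgeR adjusted p = 1.47e-13). It held under every alternative run. A Nr4a3 UMI was found in 10.4%, 8.2%, 17.5% and 11.9% of members thinned to 5000 UMIs, and at least 3 UMIs in 2.79%, 2.73%, 10.6% and 5.56%. Most members therefore held no Nr4a3 UMI in either group, and the groups lay further apart in the share of nuclei with several UMIs. In oligodendrocyte nuclei (chosen by at least 10 UMIs of oligodendrocyte markers together and few neuronal UMIs), which should lack the gene and are shallower (median 1522.5 to 2016.5 UMIs), 0.098% to 0.317% held a UMI, and at 1500 UMIs 0% to 0.325%, beside 4.76%, 4.31%, 12.8% and 9.40% of members at that depth.

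Of the 41 immediate-early genes listed, 24 passed the low-count filter. Of these, 10 were called higher (41.7%, beside 0.969% of all genes tested) and none lower. The median log2 difference was 0.60, and 0.59 over the 38 with any UMI when no filter was set, beside 0.0006 and -0.003 over all genes. Homer1, whose short activity-induced form uncouples postsynaptic scaffolds, was at 790 and 895 with saline and 1683 and 1332 with cocaine (log2 0.84, SE 0.10, edgeR adjusted p = 3.68e-06), and DESeq2 gave 0.83 with an adjusted p of 0.208. Tiparp, an ADP-ribosyltransferase, was at 13.9, 12.1, 58.0 and 31.4, but oligodendrocyte nuclei (chosen as above) held it at 22.5 to 34.2 CPM. At 1500 UMIs, 1.19%, 2.16%, 5.86% and 3.02% of members and 2.99%, 2.76%, 4.39% and 3.96% of oligodendrocyte nuclei had a Tiparp UMI. Only the cocaine female members were above the oligodendrocyte nuclei of their own library. In members with at least 16 Reln UMIs, Tiparp was at 27.8 and 32.2 CPM with saline and 193 and 109 CPM with cocaine. In those with 2 to 3 Reln UMIs the groups overlapped. These values are a description, and the part of oligodendrocyte RNA in the Tiparp values was not tested. Rheb, the GTPase that activates mTORC1, was at 73.7, 87.0, 151 and 132. Fosl2, an AP-1 subunit, was at 9.26, 8.09, 33.3 and 16.7, Egr4 at 23.9, 19.7, 50.6 and 35.4, Gadd45g, a stress-inducible gene, at 15.7, 20.7, 37.4 and 35.4, and Inhba, the activin subunit, at 16.7, 12.1, 30.4 and 21.2. In each of the genes from Tiparp to Inhba the cocaine libraries lay above the saline libraries, and the cocaine female library was the highest. Nr4a1 was at 54.5, 37.4, 96.3 and 47.2 (log2 0.63, edgeR adjusted p = 0.0364), where the cocaine male lay below the saline female library, and without the cocaine female library the difference was 0.016 (edgeR adjusted p = 0.995). Btg2, an antiproliferative gene, rested on 9, 2, 23 and 20 UMIs. Without the cocaine female library none of Tiparp (log2 1.25, edgeR adjusted p = 0.0782), Rheb (0.72, 0.13), Fosl2 (0.93, 0.719), Egr4 (0.68, 0.618), Gadd45g (0.98, 0.212), Inhba (0.52, 0.858) and Btg2 (1.82, 0.641) passed. Gadd45g (0.81) was lost without the saline female library, Nr4a1 (0.39) without the saline male, and Inhba (0.62 to 1.08) and Btg2 (1.44 to 3.05) without any 1 of the 4.

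The classical members of the family did not pass the test in these nuclei. Fos was at 7.84, 9.61, 11.5 and 10.2 (log2 0.33, edgeR adjusted p = 0.782). Arc was at 22.1, 16.7, 25.9 and 14.7 (log2 0.07, 0.946), and the groups overlapped. Egr1 differed by 0.07 (0.951) and Npas4 by 0.00 (1.00). Fosb, at a log2 difference of 1.197 (0.105), and Junb, at 0.54 (0.108), were higher in size but missed the threshold.

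Genes of neuropeptides and their processing formed the second group. Of 30 listed, 21 passed the filter, and 5 of them were called higher (23.8%, beside 0.969% of all genes tested) and none lower. Among the 5, Penk is not read as a change, as described further on. The median log2 difference was 0.30, and 0.44 over the 26 with any UMI when no filter was set. Tac1, the substance P precursor that marks D1 neurons, was at 220 and 240 with saline and 397 and 406 with cocaine (log2 0.80, SE 0.09, edgeR adjusted p = 2.88e-06). Secretogranin II (Scg2), a granule protein cut into secretoneurin, was at 73.0, 89.5, 193 and 181 (log2 1.22, SE 0.12, edgeR adjusted p = 1.37e-07). In both genes the pairs of libraries lay far apart relative to the spread within a pair, and both passed under every alternative run. Pcsk1 was at 21.0, 25.3, 81.4 and 50.5 (log2 1.53, SE 0.19, edgeR adjusted p = 1.43e-05), and at 1.14 with an edgeR adjusted p of 0.0605 without the cocaine female library. The dynorphin precursor Pdyn differed by 0.17 (0.733), the carboxypeptidase Cpe by 0.30 (0.109), Vgf by 0.58 (0.126) and Pcsk2 by -0.12, none past the threshold.

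Neurotensin (Nts), a peptide that modulates dopamine transmission, was at 1.42 and 4.55 with saline and 25.9 and 39.9 with cocaine (log2 3.52, SE 0.31, edgeR adjusted p = 6.67e-08). This rested on few nuclei: 3, 9, 14 and 12 members held a Nts UMI (1.19%, 3.88%, 5.13% and 4.03%). Thinned to 1500 UMIs the shares were 0%, 0.86%, 1.83% and 2.35%, against 0.23% to 0.40% in oligodendrocyte nuclei. When 1 library was left out the difference lay between 2.84 and 4.48. D2 nuclei were at 21.0, 37.1, 22.3 and 46.1, above the saline members in both sexes.

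Penk was at 4.63, 8.09, 13.2 and 29.7 (log2 1.72, edgeR adjusted p = 0.000916), and its difference was 1.10 (0.554) without the cocaine male library. Oligodendrocyte nuclei, which should lack it, held more of it, at 19.4, 30.8, 28.7 and 60.7 CPM. At 1500 UMIs, a Penk UMI was found in 0.79%, 1.72%, 1.47% and 3.69% of members and in 3.05%, 4.14%, 4.31% and 6.99% of oligodendrocyte nuclei. The Penk level in members was thus below that of oligodendrocyte nuclei in each library, and it is read neither as expression nor as a change. The part of free RNA in these values was not tested. The haemoglobin gene Hbb-b1 was called as well (log2 1.72), at 2.12, 5.50, 8.49 and 16.4 CPM in members and 5.36, 14.2, 6.47 and 59.5 CPM in oligodendrocyte nuclei. Only in the cocaine female library were members above the oligodendrocyte nuclei. Hbb-b1 is not read as a change in neurons either, and the part of free RNA in its values was not tested.

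**Figure D2:**
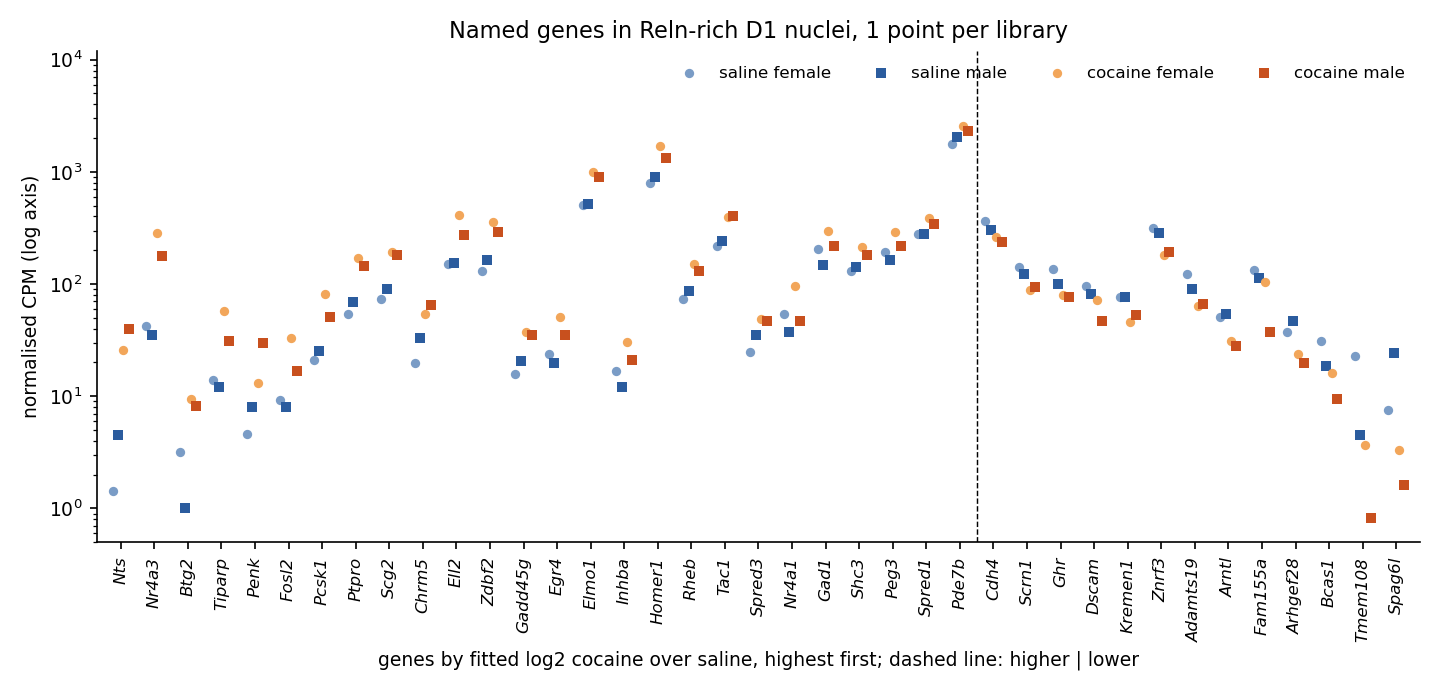
Normalised CPM (log axis) of the 39 named genes in the members of each library, ordered by the fitted log2 cocaine over saline difference, with circles for female and squares for male libraries, blue for saline and orange for cocaine. The saline and cocaine points are separate in both sexes for Nr4a3, Scg2, Tac1 and Elmo1 and overlap for Nr4a1, and the points of Tmem108 and Spag6l lie at the bottom of the axis and far apart within a group.

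Calls in the signalling lists were few in number. They made up 18.75% of the tested genes of MAP kinase feedback, 3.45% of G protein-coupled receptors and 2.17% of cAMP and dopamine signalling genes. Of all genes tested, 1.23% were called. Of 19 listed genes of MAP kinase feedback, 16 passed the filter and 3 rose (median log2 0.34, and 0.31 without the filter). These were the adaptor Shc3, at 131, 143, 214 and 183, and the Ras-pathway inhibitors Spred1, at 277, 279, 385 and 343, and Spred3, at 24.9, 34.9, 48.5 and 46.8. Their differences of 0.39 to 0.70 were lost without the saline female library (0.48, 0.39 and 0.45 in this order) and without the cocaine female library (0.42, 0.30 and 0.67). Spred1 also failed without either male library (0.39 and 0.47) and Spred3 without the cocaine male library (0.72). Chrm5, a muscarinic acetylcholine receptor and the 1 call among 29 tested of 57 listed G protein-coupled receptors, was at 19.6, 33.4, 54.3 and 64.7 (log2 1.2, edgeR adjusted p = 0.000132), and at 0.83 (0.0579) without the saline female library. Pde7b, a phosphodiesterase that degrades cAMP, was the 1 call among 46 tested cAMP and dopamine signalling genes of 49 listed, at 1782, 2048, 2550 and 2321 (log2 0.35, edgeR adjusted p = 0.0387). Leaving out the saline female library gave 0.25 and leaving out the cocaine female 0.28, past the threshold in neither fit. Gad1, the GABA-synthesising enzyme, was at 207, 147, 295 and 220 (log2 0.54, edgeR adjusted p = 0.00123), and at 0.31 (0.33) without the saline male and 0.30 (0.847) without the cocaine female library. Peg3, an imprinted zinc finger gene, was at 194, 164, 290 and 218, with a difference of 0.50 that was 0.39 (0.152) without the saline male and 0.28 (0.821) without the cocaine female library.

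Some of the firmest calls were outside the lists. Elmo1, which with Dock proteins activates Rac, was at 503 and 518 with saline and 999 and 907 with cocaine (log2 0.90, SE 0.09, edgeR adjusted p = 1.37e-07). Ptpro, a receptor-type tyrosine phosphatase, was at 54.1, 68.8, 169 and 146 (log2 1.38, SE 0.13). Zdbf2, an imprinted gene, was at 131, 162, 356 and 288 (log2 1.14, SE 0.11). Ell2, a transcription elongation factor, was at 150, 155, 409 and 274 (log2 1.16, SE 0.11), with a DESeq2 adjusted p of 0.0638. Ntrk2, the receptor for brain-derived neurotrophic factor, was at 665, 656, 1211 and 993 (log2 0.73, SE 0.09). In all 5 genes both cocaine libraries were above both saline libraries. Oligodendrocyte nuclei held more Elmo1 (1495 to 1638 CPM) and Ell2 (417 to 477 CPM) than members did, and Ptpro at 128.5 to 253 CPM. The part of oligodendrocyte RNA in these values was not tested. Its marker sum in members, given above, was 166, 236, 221 and 261 CPM, lowest in a saline and highest in a cocaine library. Of the 39 genes named by the rule for this comparison, 6 (Nr4a3, Scg2, Tac1, Ptpro, Elmo1 and Zdbf2) were called under all 13 alternatives run on members, and 28 under at least 50% of the 13. An alternative that gave no adjusted p for a gene counted as not called. DESeq2 gave no adjusted p for Nts, which was called under the other alternatives.

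The genes that fell were fewer and less stable. Znrf3, a ubiquitin ligase that removes Wnt receptors from the membrane, was at 315 and 284 with saline and 181 and 193 with cocaine (log2 -0.68, SE 0.10, edgeR adjusted p = 8.75e-05), and at -0.64 (0.0762) without the cocaine female library. Kremen1, a Wnt co-receptor antagonist, was the 1 gene called lower among 16 patch compartment genes, where Tac1 and Nr4a1 were called higher. Calls in this list made up 18.75%, beside 1.23% of all genes tested. Kremen1 was at 76.9, 76.9, 45.7 and 53.3. Arntl, the clock transcription factor Bmal1, was at 50.6, 53.6, 30.9 and 28.1. Ghr, the growth hormone receptor, was at 136, 99.1, 80.6 and 77.0, and Scrn1 at 142, 122, 87.6 and 94.1. Adamts19, a secreted metalloprotease, was at 123, 90.5, 63.3 and 66.0, and Arhgef28 at 37.0, 47.0, 23.9 and 20.0. The groups did not overlap in these genes. Of 78 guidance and adhesion genes listed, 75 passed the filter, none rose and 2 fell (2.67%, beside 0.258% of all genes tested). The 2 were the cadherin Cdh4, at 362, 305, 264 and 235, and Dscam, at 96.2, 81.4, 72.4 and 46.8. Each of these genes lost its call without the cocaine female library and without the cocaine male library, except Znrf3, which lost it only without the former. Without the cocaine female library the log2 differences of these 8 genes from Kremen1 to Dscam lay between -1.06 and -0.49, and without the cocaine male library between -0.80 and -0.30. Without the saline female library Kremen1, Ghr, Scrn1, Adamts19, Cdh4 and Dscam lost it as well (-0.63 to -0.29), and without the saline male Kremen1 (-0.64) and Arhgef28 (-0.76). Tmem108 (64, 9, 9 and 2 UMIs), Spag6l (21, 48, 8 and 4 UMIs), Fam155a (134, 114, 104 and 37.5) and Bcas1, an oligodendrocyte lineage marker (30.98, 18.7, 16.0 and 9.37), were each set by 1 library standing apart or by few UMIs. Without the saline female library the differences of Tmem108 and Bcas1 were -0.997 and -0.56, without the saline male that of Spag6l was -1.59, and without the cocaine male that of Fam155a was -0.25, with no call in any of these fits. Tmem108, Spag6l and Bcas1 were not called without either cocaine library.

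No gene of the reelin pathway was called. Of 44 listed genes of the reelin pathway, 39 passed the filter and none was called, beside 1.23% of all genes tested. The median log2 difference was -0.06, and -0.05 without the filter. The reelin receptor Lrp8 was at 20.7, 15.7, 18.9 and 16.7 (log2 -0.03, edgeR adjusted p = 0.978) and the adaptor Dab1 at 345, 329, 309 and 310 (log2 -0.12, 0.677). Vldlr differed by -0.51 (0.644) and Fyn by -0.07 (0.845). None of the 59 ion channel genes tested of 69 listed, of the 29 ionotropic receptor genes of 37 or of the 16 matrix compartment genes of 16 was called, with medians of -0.08, -0.07 and -0.07. The fitted difference was above 0 in 15 of 39 reelin pathway genes, 15 of 59 ion channel genes, 9 of 29 ionotropic receptor genes and 4 of 16 matrix genes, beside 50.1% of all genes tested. Of the 66 listed transcription factors, 51 passed and 1 (Peg3) rose. At the share of 1.23%, lists of these sizes hold few calls or none. A missed threshold does not show that these genes did not differ.

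The bases before the start site were read for the genes called in members, because several of the firmest calls are genes known to answer to cAMP. RefSeq windows of 250 bases upstream on the GRCr8 build matched 74 of 103 genes that rose (rule genes apart) and 14 of 28 that fell, and genes such as Nr4a3, Pcsk1, Ntrk2 and Znrf3 had no entry. The cAMP response element (CRE) TGACGTCA, searched on both strands, was in 7 of the 74 windows (9.46%), namely those of Scg2, Ell2, Zdbf2, Ahi1, Peg3, Clstn3 and Btg2, and in 1 of the 14 (Spag6l). It was in 1.59% of all 33469 windows and in 3.19% of the windows of 7304 genes tested. The half-site TGACG, which the full element contains, was in 35 of the 74 (47.3%), in 4 of the 14 (28.6%), in 18.2% of all windows and in 30.2% of those of genes tested. The AP-1 element TGANTCA was in 2 of the 74 (2.70%) and 6.34% of all windows, the Nr4a element AAAGGTCA in none of the 74 and 1.24% of all, the EGR element GCGTGGGCG in 1 of the 74 and 0.478% of all, and the CArG box in 2 of the 74 and 1.497% of all. In the windows of genes tested the shares of AP-1, Nr4a, EGR and CArG were 3.53%, 0.589%, 0.972% and 1.04%. A match is a run of letters and was not tested as a site. The windows of 5 genes described in this comparison are shown 5′ to 3′ on the strand of the gene, ending at the base before the start site, with the matched letters in capitals: the full element in Scg2 (chr9:88256867-88257116, minus strand, 123 to 116 bases upstream), Zdbf2 (chr9:72203348-72203597, plus strand, 59 to 52 bases upstream) and Btg2 (chr13:48087691-48087940, minus strand, 201 to 194 bases upstream), the AP-1 element in Nts (chr7:39460889-39461138, minus strand, 212 to 206 bases upstream) and the half-site, in reverse orientation, in Tac1 (chr4:36645333-36645582, plus strand, 206 to 202 bases upstream).
Scg2: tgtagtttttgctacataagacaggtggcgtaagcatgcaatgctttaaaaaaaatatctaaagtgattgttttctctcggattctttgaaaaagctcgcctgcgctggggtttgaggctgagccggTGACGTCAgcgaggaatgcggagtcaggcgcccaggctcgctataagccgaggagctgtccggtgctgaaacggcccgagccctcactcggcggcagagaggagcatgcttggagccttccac
Zdbf2: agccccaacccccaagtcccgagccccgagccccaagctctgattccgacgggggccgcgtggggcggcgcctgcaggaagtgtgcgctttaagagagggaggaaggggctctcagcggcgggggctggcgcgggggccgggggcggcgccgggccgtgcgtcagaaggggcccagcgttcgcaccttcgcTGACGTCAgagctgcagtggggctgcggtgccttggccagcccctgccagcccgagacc
Btg2: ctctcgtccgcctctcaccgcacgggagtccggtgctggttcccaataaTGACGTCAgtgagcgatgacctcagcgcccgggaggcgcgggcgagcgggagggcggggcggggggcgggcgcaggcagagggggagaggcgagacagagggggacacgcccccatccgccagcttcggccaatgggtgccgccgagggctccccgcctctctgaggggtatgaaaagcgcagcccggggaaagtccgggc
Nts: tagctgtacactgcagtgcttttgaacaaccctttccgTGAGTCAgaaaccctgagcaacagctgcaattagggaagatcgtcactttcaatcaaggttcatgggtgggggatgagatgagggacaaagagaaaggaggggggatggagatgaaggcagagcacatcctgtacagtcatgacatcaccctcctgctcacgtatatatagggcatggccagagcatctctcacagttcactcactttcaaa
Tac1: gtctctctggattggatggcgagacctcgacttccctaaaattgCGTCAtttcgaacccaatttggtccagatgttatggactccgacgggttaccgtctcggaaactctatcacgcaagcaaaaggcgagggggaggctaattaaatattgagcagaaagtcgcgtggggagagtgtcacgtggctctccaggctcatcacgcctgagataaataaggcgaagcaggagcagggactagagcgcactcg

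The named genes were also read in members divided by their Reln UMIs. The division was chosen after the values had been seen, and it is described without a test: Reln is the selecting gene and more cocaine than saline nuclei were rich in it (43 and 36 against 24 and 10 with at least 16 UMIs), so the divisions need not hold like nuclei in both groups. In nuclei with at least 16 Reln UMIs, Nr4a3 was at 143 and 64.4 CPM with saline and at 1274 and 887 CPM with cocaine, and in members with 2 to 15 Reln UMIs at 30.7, 33.6, 70.0 and 83.2 CPM. In those with 2 to 3 Reln UMIs it was at 8.16, 20.4, 5.64 and 13.4 CPM, with overlapping groups. The nuclei of at least 16 Reln UMIs thus held 34.5%, 8.57%, 79.3% and 59.5% of the members' Nr4a3 UMIs.

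Elmo1 was at 971, 945, 3544 and 3796 CPM in the Reln-richest nuclei and at 446, 491, 441 and 519 CPM in members with 2 to 15 Reln UMIs, where the groups overlapped. Scg2 was at 104, 129, 606 and 768 CPM against 68.9, 86.6, 102 and 102 CPM, and Homer1 at 2352, 1847, 4945 and 3700 CPM against 607, 839, 959 and 1021 CPM. Tac1 was at 435, 505, 1355 and 1308 CPM against 194, 224, 186 and 286 CPM. Nts was at 0, 10.7, 118 and 282 CPM in the Reln-richest nuclei. The 26 named genes called higher were chosen on the sums that these nuclei enter, so their counts are a description only. Cocaine libraries were all above saline libraries in 24 of the 26 in the Reln-richest nuclei, with a median log2 ratio of the group means of 1.62, beside 17.4% of all 10835 genes. They were so in 18 in members with 8 to 15 Reln UMIs (median 0.85, 15.6% of all genes), in 10 at 4 to 7 (0.30, 18.8%) and in 7 at 2 to 3 (0.23, 20.4%). In D1 nuclei without a Reln UMI, which are no members, it was 14 (0.38, 19.6%), more than at 2 to 7 Reln UMIs, so the counts did not climb steadily with Reln.

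Of the 13 named genes called lower, chosen in the same way, cocaine libraries were all below saline libraries in 12 in members with 2 to 15 Reln UMIs (median log2 ratio -0.66, 14.6% of all genes) and in 7 in the Reln-richest nuclei (median -1.04, 20.4% of all genes). Znrf3 was at 325, 286, 193 and 208 CPM in the former and 205, 172, 107 and 98.5 CPM in the latter. Both cocaine libraries were also below both saline libraries in D1 nuclei with 0 or 1 Reln UMIs (227, 238, 166 and 206 CPM at 0).

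Depth and cell type markers were read in the same nuclei. The Reln-richest nuclei had median depths of 12510, 9109.5, 9315 and 7285.5 UMIs, the lowest in the cocaine male library. When all nuclei were thinned to 5000 UMIs and divided at 10 Reln UMIs, Elmo1 was at 933, 560, 3636 and 3208 CPM in the richer nuclei and 368, 527, 547 and 514 CPM in the others, and Nr4a3 at 244, 280, 1207 and 696 CPM in the richer nuclei. The Reln-richest nuclei had medium spiny neuron marker sums of 20663 to 22995 CPM, and interneuron sums of 184, 96.6, 167 and 238 CPM. Their astrocyte sums were 27.8, 21.5, 121 and 27.2 CPM and their oligodendrocyte sums 97.4, 85.9, 227 and 71.4 CPM, so the cocaine female nuclei held the most glial RNA. Their sums for oligodendrocyte precursor markers were 13.9 and 10.7 CPM with saline and 83.5 and 47.6 CPM with cocaine, higher in both cocaine libraries, and the part of such RNA in the values was not tested. At full depth the saline values rest on 24 and 10 nuclei, and the thinned ones on 9 and 5.

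**Figure D3:**
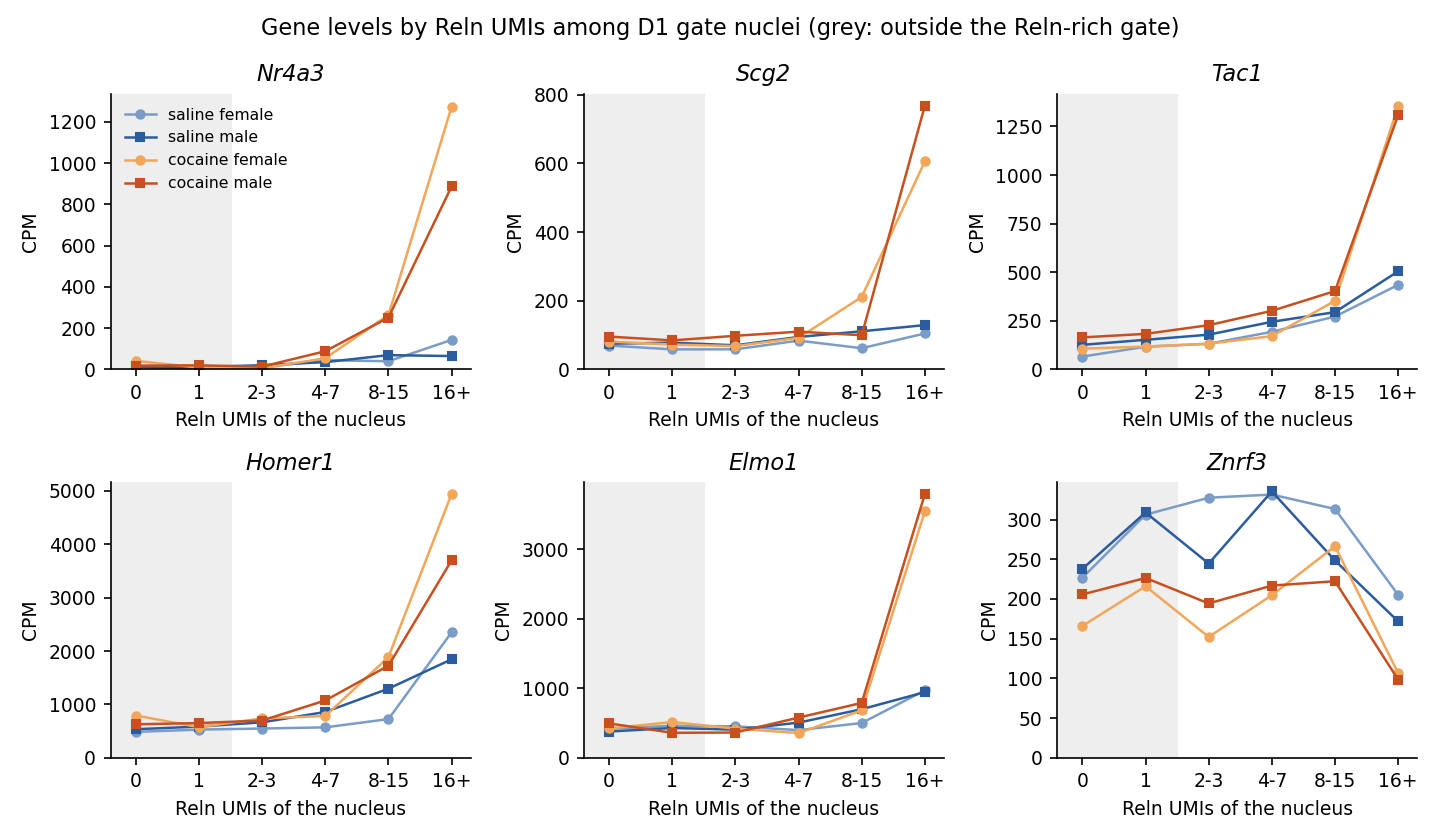
Level of 6 genes in CPM (vertical, from 0) in D1 nuclei grouped by the Reln UMIs of the nucleus (horizontal), with 1 line per library and nuclei outside the rule shaded grey. For Nr4a3, Scg2, Tac1, Homer1 and Elmo1 the cocaine lines climb above the saline lines at 16 or more Reln UMIs, while for Znrf3 they lie below the saline lines at each Reln level except 8 to 15 UMIs.

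The cocaine difference in Htr4-rich nuclei of the same libraries was called in 18 of 7644 genes (0.235%). Since both classes come from the same pools, their values are given side by side. Nr4a3 was at 1.99, 15.4, 71.7 and 34.8 in Htr4-rich nuclei (log2 2.35, SE 0.41, edgeR adjusted p = 0.000172), but only 1, 7, 4 and 6 nuclei held a UMI of it, and 1 cocaine female nucleus held 24 UMIs after thinning to 5000. Nts was at 29.9, 28.2, 152 and 40.6 (log2 1.56, 0.00112), set apart by the cocaine female library, with a UMI in 4, 13, 6 and 11 nuclei. Homer1 differed by 0.93 (1.93e-07), Elmo1 by 0.66 (0.000918) and Tac1 by 0.72 (0.0173). Scg2 was at 67.7, 98.5, 86.6 and 56.1, a log2 difference of -0.23 (edgeR adjusted p = 0.989). Htr4-rich nuclei numbered 43 to 87 per library, fewer than members.

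The difference between the classes' cocaine effects was tested itself. With edgeR it passed in none of 10480 genes (0%), with 475 at an unadjusted p below 0.05, and DESeq2 gave none either. The smallest adjusted p of a named gene was that of Scg2, whose effect was larger in members by 1.41 on the log2 scale (SE 0.25, edgeR adjusted p = 0.171), followed by Chrm5 at 2.02 (SE 0.39, 0.224). For Nr4a3 the effects differed by 0.17 (SE 0.56) and for Elmo1 by 0.24 (SE 0.16). Genes passed when 1 library was left out (17 with the saline female left out, 21 with the saline male, 3 with the cocaine female and 1 with the cocaine male left out), so the count of 0 depends on these libraries.

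Against D2 nuclei the effects did differ. In 65 of 12472 genes (0.521%) the cocaine difference was not the same in members and D2 nuclei, and in 62 of these it was higher in members. Of the 26 named genes called higher in members, 16 passed this test, and of the 13 called lower, none. Both sets were chosen on the member sums that also enter this test, so these counts are a description only. The 16 include Penk, which is not read as a change in these neurons, and Tiparp, where the part of oligodendrocyte RNA was not tested. Elmo1 was at 637, 677, 664 and 659 in D2 nuclei, with overlapping groups, and its effect was larger in members by 0.89 (SE 0.08, edgeR adjusted p = 3.61e-06). Nr4a3 was at 32.2, 20.5, 57.4 and 36.0 in D2 nuclei, and its effect was larger in members by 1.76 (SE 0.16, 3.94e-06). Zdbf2 was at 155, 160, 156 and 154 and Ntrk2 at 593, 532, 544 and 523 in D2 nuclei, and their effects were larger in members by 1.16 and 0.81. Homer1 differed by 0.76 (0.000499) and Scg2 by 1.03 (0.000138). For Tac1, which D2 nuclei hold at 2.60 to 14.5, the effects differed by 0.08 (0.981). Oligodendrocyte nuclei held Tac1 at 6.47, 15.4, 15.8 and 22.9 CPM, above D2 nuclei in each library. This comparison therefore does not show that D2 neurons share the Tac1 difference. The count was 42 when the saline female library was left out, 178 when the cocaine male was, and 13 with DESeq2.

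**Figure D4:**
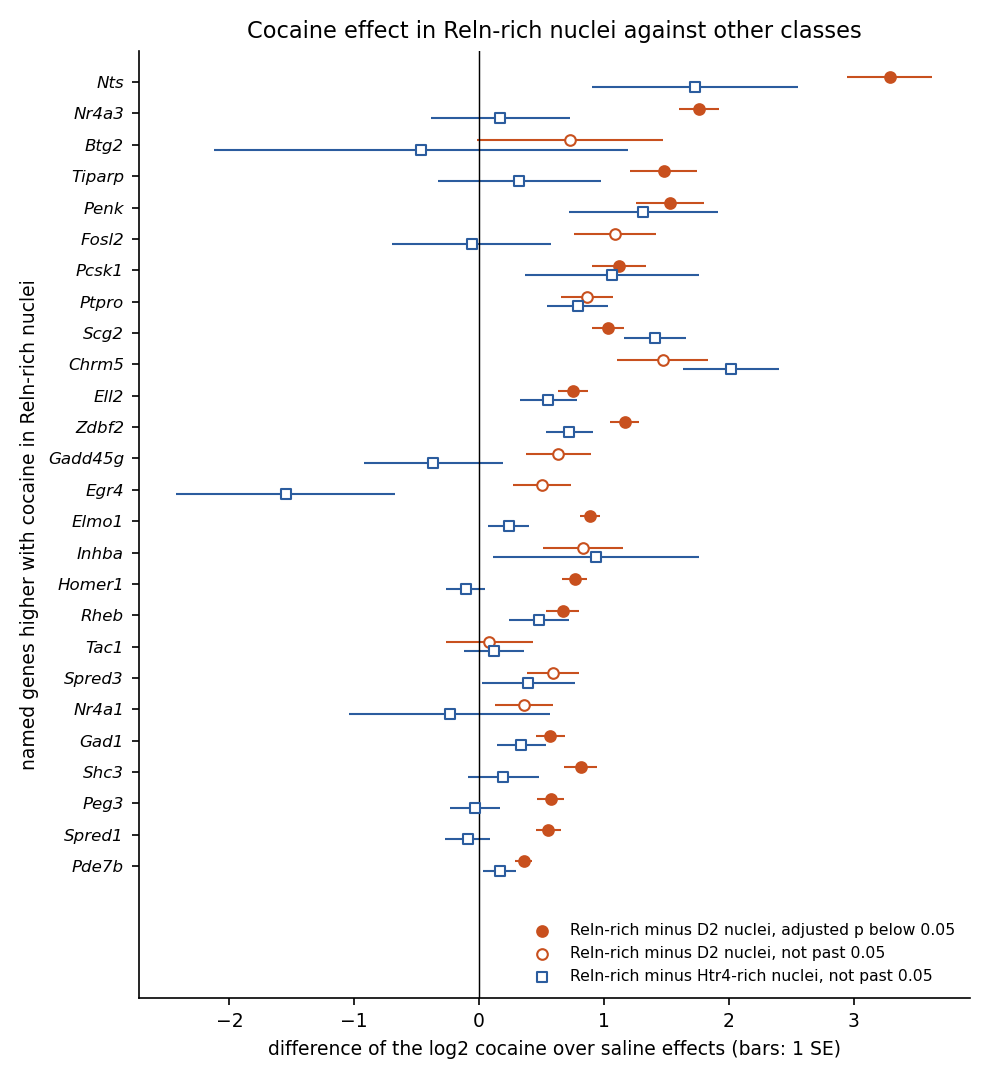
Difference of the log2 cocaine over saline effect between members and D2 nuclei (orange circles) and between members and Htr4-rich nuclei (blue squares) for the 26 named genes called higher in members, with bars of 1 standard error and filled points for an edgeR adjusted p below 0.05. The 16 filled points all lie to the right of 0, from Nts at 3.29 downwards, and no blue square is filled. The genes were chosen for a higher level with cocaine in members, which favours points to the right of 0.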

How the data were processed

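Single-nucleus RNA was measured in 4 libraries, and the authors deposited for each a raw matrix of whole-number UMI counts (genes by nuclei). Per the file headers they were made with Cell Ranger 6.1.2, and per the submitters' processing notes on rn7. For the annotation, intron handling and read filters: not given in the sources used here. Reads of near-identical or overlapping genes may be split. No cells were removed here beyond the rule. Doublets were scored with Scrublet in scanpy 1.11.5, and the 4.97% to 5.81% of nuclei with the highest scores (13, 21, 19 and 18 members) were left out in an alternative.

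The members, gene lists and tests were chosen with earlier results of these data known. Counts were summed per library, the replicate, and tested with edgeR 4.0.16 (quasi-likelihood, TMM scaling, filterByExpr, sex as a term, R 4.3.3, limma 3.58.1) with Benjamini-Hochberg adjustment over all genes tested at 0.05. In members this leaves 1 residual degree of freedom, moderated by 25.3 prior degrees of freedom estimated across genes. The fits in Htr4-rich nuclei and in all D1 nuclei also had 1, with 92.0 and 128 prior degrees of freedom. The cocaine effects of 2 classes were compared by a treatment-by-class term with library as a block. This left 2 residual degrees of freedom, with 15.1 prior ones against Htr4-rich and 18.5 against D2 nuclei. Named genes were those of 24 lists (563 of 583 symbols were among 30560 features) that passed, plus up to 10 higher and 10 lower with a symbol, the smallest adjusted p and 1 sign in both sexes. For differences between classes, up to 5 of each sign were named, and for identity up to 10 of each sign plus list genes. Fits were tested on simulated data. Alternatives were RLE scaling, DESeq2 1.42.0, no low-count filter, no sex term, each library left out (without a sex term), Scrublet removal, the rule read at 5000 UMIs per nucleus or with at least 3 UMIs in its Reln step, equal nuclei, a 5% mitochondrial limit and, added after the data were seen, all D1 nuclei without the Reln step. The alternative with at least 3 UMIs also asked for at least 3 UMIs of Htr4 in Htr4-rich nuclei and of Drd2 and Adora2a together in D2 nuclei. A glutamatergic background gate held too few nuclei and was not used. Some items are not reported here. Intervals and floors cover counting error only.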

Additional observations from a re-analysis of the deposited data

Results flagged for a closer look

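The cocaine difference itself differed between members and D2 nuclei of the same libraries in 65 genes by the edgeR treatment-by-class term. Those named were the 5 with the smallest adjusted p above 0 and the 3 that passed below 0. Above 0, the effect was larger in members by 0.89 on the log2 scale for Elmo1, 1.76 for Nr4a3, 1.16 for Zdbf2, 3.29 for Nts and 0.81 for Ntrk2. Below 0, it was lower in members by -1.54 for Clstn2 (calsyntenin 2, a synaptic cadherin-like protein; edgeR adjusted p = 0.036), -0.54 for Pcp4 (a calmodulin-binding peptide; 0.0308) and -0.64 for ENSRNOG00000067240 (0.00702). Pcp4 was at 96.0, 93.4, 104 and 104 normalised CPM in D2 nuclei and Clstn2 at 41.6, 24.2, 84.7 and 15.5, so the value of Clstn2 in D2 nuclei was set by the cocaine female library. The call of ENSRNOG00000067240 was lost with DESeq2, and that of Pcp4 with DESeq2 and with at least 3 UMIs. Clstn2 lost it after Scrublet removal, at 5000 UMIs and with at least 3 UMIs. Pcp4 and Clstn2 also lost it in fits that left out 1 library.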

How the results depend on the processing

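The 133 genes called in members were 15 with DESeq2, 49 without the sex term, 54 after Scrublet removal, 214 with equal nuclei per library, 218 in all D1 nuclei without the Reln step (chosen after seeing the data) and 16 to 122 with 1 library left out. Other counts also moved. The 18 genes of Htr4-rich nuclei were 1 with DESeq2, without the filter and after Scrublet removal, 0 without the sex term, 3 with the rule read at 5000 UMIs, 9 with at least 3 UMIs, 8 with equal nuclei and 8 to 37 with 1 library left out. The 0 genes whose effect differed from Htr4-rich nuclei became 11 without the filter, 2 at 5000 UMIs, 8 with at least 3 UMIs and 1 to 21 with 1 library left out. The 65 that differed from D2 nuclei became 13 with DESeq2, 151 without the filter and 42 to 178 with 1 library left out. The Reln level in all D1 nuclei (0.61) was no longer called with DESeq2 (0.61) or without the sex term (0.58), and lay at 0.31 to 0.93 with 1 library left out. The identity count became 250 at 1.5-fold. Of the 39 named genes, 8 kept the call with DESeq2, and leaving out the cocaine female, cocaine male, saline female or saline male pool kept 12, 22, 23 or 30. None changed sign. Of the 133 genes, 98 were also called in all D1 nuclei, where 218 of 12694 genes were called. All D1 nuclei include the members, so this overlap is partly built in and adds no support. The cocaine minus saline difference in the share of members was -1.25 to 0.76 percentage points over the other rules, within the SD of the saline libraries, but the share itself moved with the rule (mean with cocaine 37.2%, 31.04% at 5000 UMIs and 29.1% with at least 3 UMIs). The cause of these changes was not tested. The sex term pairs the libraries, 1 of saline and 1 of cocaine per sex, and the count of 49 is that without this pairing. With 2 pools a group, the spread of a gene between pools was poorly estimated. A call does not show that a difference exceeded this spread. The groups did not overlap in 128 of the 133 called genes, and they overlapped in Nr4a1.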
